A study of Mus musculus with 2 samples.

Results

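10 genes that encode the B7 and nectin ligands of immune checkpoints, together with 2 receptors of B7 ligands, were examined in leukocytes from mouse squamous cell carcinomas. They were taken by gene symbol, and all 10 were present among the 31055 genes listed in each count matrix: Cd274 (PD-L1), Pdcd1lg2 (PD-L2), Cd80, Cd86, Cd276 (B7-H3), Icosl, Icos, Cd28, Pvr (CD155) and Nectin2 (CD112). The tumours were grown under the skin of FVB mice from a mixture of 2 squamous cell carcinoma lines, CIT6 marked with YFP and CIT9 marked with RFP, and received no treatment. Sections were labelled by light-directed oligonucleotide codes (ZipSeq), digested, sorted for CD45+ cells and sequenced with the 10x 3' v3 chemistry. Both samples, replicate 1 and replicate 3, belong to 1 group, so classes of cells within a tumour were compared, as were cells with different codes and, without a test, the tumours. Nothing in the labels says whether the tumours came from separate animals or were pooled. A p-value here rests on the spread between these 2 samples, which may be technical. That spread was estimated jointly over all classes of a fit, so a difference can pass although the 2 tumours disagree on it. The CD45+ sort leaves the carcinoma cells, which can carry these ligands themselves, largely outside the measurement.

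B7 proteins sit on antigen-presenting cells and tell a T cell how to respond once its receptor has met antigen. CD80 and CD86 bind CD28, which drives activation, and CTLA-4, which restrains it. PD-L1 and PD-L2 bind PD-1 and dampen T cells, and interferons are known inducers of PD-L1. ICOSL binds ICOS, a relative of CD28 that is abundant on regulatory and helper T cells. B7-H3 has no firmly established receptor and is known from tumour and stromal cells. PVR and Nectin-2 are adhesion molecules that bind the inhibitory receptor TIGIT and the activating receptor CD226, and PVR also binds CD96.

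Several of the genes are neighbours in the mouse genome (GRCm38, GENCODE release M21 annotation). Cd274 lies on chromosome 19 from 29367455 to 29388095 on the plus strand, and Pdcd1lg2 follows it on the same strand from 29410919 to 29471161, 22.8 kilobases downstream with no coding gene between. Cd28 (chromosome 1, 60716800 to 60773359) and Icos (60977927 to 61000320) flank Ctla4, Nectin2 (19716644 to 19750483) and Pvr (19903578 to 19921160) lie 153.1 kilobases apart on chromosome 7, and Cd80 (38455561 to 38496335) and Cd86 (36603869 to 36666081) share chromosome 16. Cd276 is on chromosome 9 (58524298 to 58555437) and Icosl on chromosome 10 (78069302 to 78083913). Promoter entries of RefSeq (GRCm38.p6) were matched for 6 of the 10 genes. The 250 bases upstream of the start sites of both PD-1 ligand genes are shown, since both genes were higher in activated than in conventional dendritic cells (values below). They are read on the plus strand at chr19:29367188-29367437 and chr19:29410669-29410918, and the capitals mark a match to AAANNGAAA, a shortened interferon regulatory factor element, here as its reverse complement TTTCNNTTT.
Cd274: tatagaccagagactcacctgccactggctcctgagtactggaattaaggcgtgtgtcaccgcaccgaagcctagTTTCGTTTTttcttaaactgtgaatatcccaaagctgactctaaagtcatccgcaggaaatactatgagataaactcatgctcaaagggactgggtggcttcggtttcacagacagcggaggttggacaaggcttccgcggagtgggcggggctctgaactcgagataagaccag
Pdcd1lg2: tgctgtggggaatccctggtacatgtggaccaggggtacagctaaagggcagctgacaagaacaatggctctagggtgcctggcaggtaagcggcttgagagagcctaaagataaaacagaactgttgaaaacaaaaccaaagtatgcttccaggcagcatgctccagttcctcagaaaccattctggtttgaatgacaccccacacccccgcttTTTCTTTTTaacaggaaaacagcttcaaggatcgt
The match begins 175 bases before the start site in Cd274 and 35 bases before it in Pdcd1lg2, and Cd80 holds another 30 bases after its start site. Searched on both strands in windows of 300 bases, this shortened motif, chosen after the sequences had been seen, was in 3 of the 6 promoters and in 10.55% of 32851 mouse promoters. The full interferon regulatory factor element (GAAA and GAAA with 2 bases between, which overlaps the shortened motif), the STAT element TTCNNNGAA and the NF-kappaB element (GGG and TTTCC with 2 bases between) were in none of the 6 and in 3.443%, 8.298% and 1.629% of all promoters, which says only that these letters are absent from the 6 windows.

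Replicate 1 held 89040909 gene UMIs (unique molecular identifiers, which count captured mRNA molecules) and gave 4632 cells, and replicate 3 held 170328781 and gave 6371 cells, 11003 in all. 9 barcodes were called in both libraries. Cells were clustered without the 10 genes and clusters were named from marker lists, which gave 13 classes that reached 10 cells in both tumours. These names come from the clustering done here, not from the authors, and 929 and 1588 cells were left unnamed, phagocytes among them. Macrophage-like cells were the most frequent class (2455 and 3186 cells in replicates 1 and 3), neutrophil-like cells were 462 and 48, and activated DC-like cells (Ccr7, Fscn1 and Ccl22 among their markers) were only 16 and 17. Monocyte-like cells were only 36 and 99. A cluster of 195 and 745 cells, with Chil3, Ly6c2 and Plac8 among its leading genes, stayed outside that class. With another clustering seed the monocyte cluster held 118 and 408 cells, so the border of this class is not firm. The marker lists set the classes apart: the 8 neutrophil markers summed to 145149 and 49007 CPM (the usual depth-scaled unit, here UMIs of a gene scaled by all UMIs of its class) in the neutrophil-like class and to at most 4984 in any other named class, and the 7 activated DC markers to 5646 and 5886 against at most 498. Cells of other types were nevertheless present: the macrophage list reached 14429 CPM in the activated DC-like class of replicate 1 against 501 in that of replicate 3, and the part of such admixture in the results was not tested. A stromal-like class of 33 and 52 cells passed the sort. It carried the reporters of the carcinoma lines, with YFP at 140.2 and 28.4 CPM and RFP at 43.7 and 26.6 CPM, where every other of the 13 classes had at most 6.54 CPM of either. Free RNA, read from barcodes with fewer than 100 UMIs, held Cd274 at 45.9 and 36.6 CPM, Cd86 at 144 and 133 CPM and Pdcd1lg2 at 10.7 and 8.35 CPM. Class levels near these values do not stand out from free RNA. Stromal-like cells, however, had 3.91 and 1.72 CPM of Cd274, far below its free RNA. The share of free RNA within each class was not measured.

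**Figure D1:**
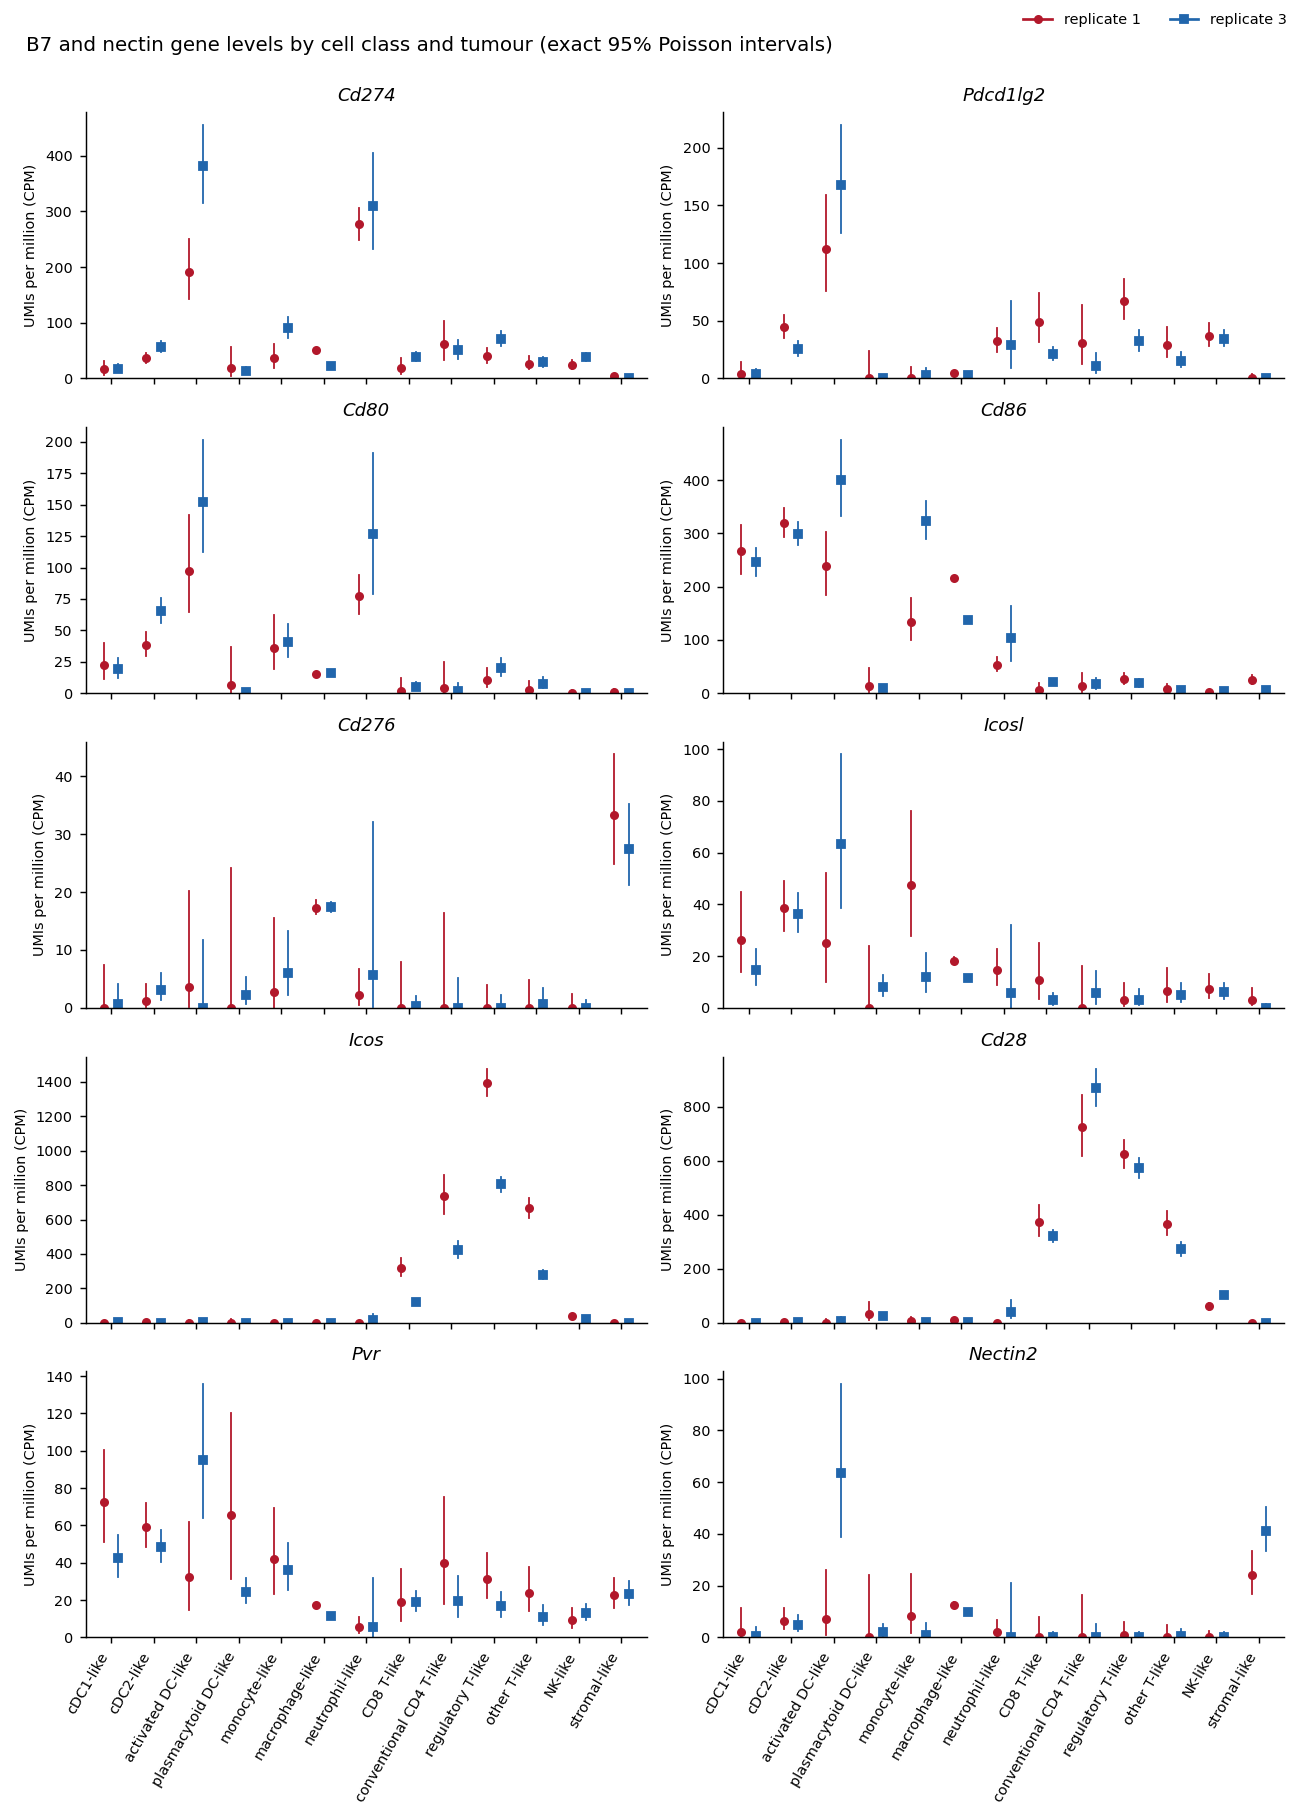
Level of each gene in CPM (UMIs scaled by the total of the class, linear axes from 0, scaled per gene) in 13 cell classes, with 1 point per tumour and exact 95% Poisson intervals that cover counting error only. Cd274 and Cd80 stand highest in the activated DC-like and neutrophil-like classes, Icos in regulatory T-like cells, and Cd276 in stromal-like cells (33.3 and 27.5 CPM).

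PD-L1 transcripts stood highest in neutrophils and activated dendritic cells. Cd274 stood at 276 CPM in the neutrophil-like class of replicate 1 (95% Poisson interval 248 to 306, 359 UMIs) and at 310.2 CPM in replicate 3 (233 to 405, 54 UMIs), a mean of 293 ± 23.9 (SD, n = 2). In the activated DC-like class it was 191 CPM (143 to 250.4) and 381 CPM (316 to 455). The ranges of these 2 classes overlap, and both lie above every other class in both tumours. The next class was conventional CD4 T-like cells in replicate 1 and monocyte-like cells in replicate 3. Monocyte-like cells had 36.3 and 90.0 CPM, conventional CD4 T-like cells 61.9 and 50.4, regulatory T-like cells 40.2 and 71.0 and macrophage-like cells 51.1 and 22.7 CPM, ranges that overlap each other. The lowest level was in stromal-like cells, at 3.91 and 1.72 CPM. Depth per cell differed between classes, so each cell was also thinned to 1000 UMIs. A Cd274 UMI was then found in 15.8% of neutrophil-like cells in replicate 1 (73 of 462) and 25.0% in replicate 3 (12 of 48), in 5.58% and 2.39% of macrophage-like cells, and in 0 of 33 and 0 of 52 stromal-like cells. Without thinning the shares were 28.1% and 39.6% in neutrophil-like cells, with median totals of 2499.5 and 2722.5 UMIs, and 9.09% and 5.77% in stromal-like cells, with 43543 and 37001 UMIs.

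PD-L2 followed a different order among the classes. Pdcd1lg2 was highest in activated DC-like cells, at 112 and 168 CPM, a range above that of every other class. Next came lymphoid classes, cDC2-like cells and neutrophils, each range overlapping the next: regulatory T-like cells had 67.3 and 32.1 CPM, NK-like cells 37.0 and 34.5, CD8 T-like cells 49.2 and 21.2, cDC2-like cells (the conventional dendritic cells that mainly prime CD4 T cells) 44.4 and 25.5, and neutrophil-like cells 32.3 and 28.7. Macrophage-like cells had 4.80 and 2.73 CPM, below the free RNA of both tumours. No Pdcd1lg2 UMI was found in plasmacytoid DC-like cells, which in the 154 cells of replicate 3 allows up to 1.35 CPM.

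The classes were compared with the quasi-likelihood test of edgeR on UMI sums, with the tumour as a block and Benjamini-Hochberg adjustment over all genes tested, and values below are log2 fold changes with standard errors. Activated against conventional dendritic cells (cDC1-like and cDC2-like together), 4 of the 10 genes were higher and 0 were lower, where 15.6% of 8281 genes passed in either direction, 5.34% higher and 10.2% lower. Cd274 rose by 2.85 ± 0.35 (adjusted p = 4.55e-08), Pdcd1lg2 by 2.43 ± 0.32 (adjusted p = 2.99e-07) and Cd80 by 1.5 ± 0.28 (adjusted p = 0.000105). Conventional DC-like cells had 31.8 and 43.3 CPM of Cd274 and 35.4 and 18.0 CPM of Pdcd1lg2. The change of Nectin2, 3.03 ± 0.63 (adjusted p = 0.000559), rests mostly on replicate 3, in which activated DC-like cells held 20 UMIs against 2 in replicate 1. In 1 tumour alone it was 4.15 in replicate 3 and 0.69 in replicate 1, and DESeq2 did not call it (adjusted p = 0.0679). Cd86, Icosl and Pvr did not pass, at 0.06 ± 0.29, 0.43 ± 0.46 and 0.23 ± 0.35. Within conventional dendritic cells, in a contrast added after the data had been seen (5.17% of 8241 genes called), Pdcd1lg2 was higher in cDC2-like than in cDC1-like cells by 2.93 ± 0.52 (adjusted p = 0.000129) and Cd80 by 1.30 ± 0.32 (adjusted p = 0.00736, and 0.104 without the tumour block).

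Neutrophils and monocytes, which both enter tumours from blood, differed in 5 of the 10 genes, 3 higher and 2 lower in neutrophils (22.3% of 8241 genes passed, 11.7% higher and 10.6% lower). Cd274 was higher in neutrophil-like cells by 2.80 ± 0.35 (adjusted p = 3.36e-08) and Cd80 by 2.09 ± 0.32 (adjusted p = 1.51e-06). Pdcd1lg2 also passed (adjusted p = 2.94e-06), with 42 and 5 UMIs in neutrophil-like cells and 0 and 3 in monocyte-like cells. Cd86 was lower (-1.13 ± 0.35, adjusted p = 0.0128), with 53.1 and 103 CPM in neutrophil-like cells and 134 and 324 CPM in monocyte-like cells, a call lost without the tumour block (adjusted p = 0.072). Pvr was lower too (-2.07 ± 0.59, adjusted p = 0.00791). The size of these values depends on the scaling. With total UMIs in place of TMM factors the median of all genes moved by -0.80, Cd274 to 2.09 and Cd80 to 1.37, and both still passed. Against macrophage-like cells (added after the data had been seen, 43.4% of genes called), Cd274 was higher in neutrophil-like cells by 3.73 ± 0.30 and Cd80 by 3.39 ± 0.26. Cd86 was at -0.65 ± 0.33 there (adjusted p = 0.10), which passed with total UMIs at -1.48 (adjusted p = 6.06e-05). Against neutrophil-like cells, activated DC-like cells (added, 26.1% of genes called) did not differ past the threshold in Cd274 (-0.64 ± 0.32, adjusted p = 0.149) or Cd80 (-0.24 ± 0.30, and 0.37 with total UMIs), but held more Pdcd1lg2 (1.62 ± 0.37), Cd86 (1.66 ± 0.36) and Pvr (2.94 ± 0.59).

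CD86 transcripts were found across the antigen-presenting classes. Its levels were 238 and 399.6 CPM in activated DC-like cells, 319 and 299 in cDC2-like, 266 and 246 in cDC1-like, 134 and 324 in monocyte-like and 216 and 138 in macrophage-like cells, and each of these ranges overlaps the next except cDC2-like and cDC1-like. The monocyte-like level of replicate 1 and the macrophage-like level of replicate 3 lie near the free RNA of Cd86, 144 and 133 CPM. Neutrophil-like cells followed below all of these classes, at 53.1 and 103 CPM. Cd80 was at 97.5 and 152 CPM in activated DC-like cells, 77.7 and 126 in neutrophil-like cells, and 14.9 and 16.1 in macrophage-like cells, the last near its free RNA of 11.2 and 22.0 CPM. In neutrophil-like cells Cd80 stood above Cd86 in both tumours, and in the other classes named here below it. Plasmacytoid DC-like cells, the specialised producers of type I interferon, had 13.1 and 9.03 CPM of Cd86 and 6.54 and 0.90 CPM of Cd80.

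Conventional dendritic cells and macrophages differed in 7 of the 10 genes, 5 higher and 2 lower in dendritic cells, against 18% of 8281 genes in either direction (7.54% higher and 10.5% lower). Pdcd1lg2 (2.87 ± 0.27), Pvr (2.00 ± 0.24), Cd80 (1.5 ± 0.21) and Icosl (1.23 ± 0.29) were higher, with adjusted p of 4.84e-11, 9.69e-09, 6.05e-07 and 0.00185. Cd86 was higher by 0.79 ± 0.25 (adjusted p = 0.0202). Cd276 (-3.22 ± 0.42, adjusted p = 1.52e-07) and Nectin2 (-1.34 ± 0.45, adjusted p = 0.0319) were lower. The difference in Cd274 missed the threshold (0.08 ± 0.30). In the fit with no tumour block 4 of the 10 passed, and the calls of Cd86, Icosl and Nectin2 were lost.

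Macrophages differed from monocytes (36 and 99 cells) in 4 genes, 1 higher and 3 lower in macrophages (23.1% of 8241 genes called, 13.5% higher and 9.57% lower). Cd80 (-1.30 ± 0.30, adjusted p = 0.00129) and Pvr (-1.51 ± 0.33, adjusted p = 0.00066) were lower in macrophage-like cells. Cd276 was higher by 1.74 ± 0.54 (adjusted p = 0.0163), with 17.3 and 17.3 CPM in macrophages and 1 and 6 UMIs in monocytes, and this call was lost in 6 of 10 other settings, down to 0.11 (adjusted p = 0.827) at clustering resolution 2. For Cd274 the tumours disagreed: macrophage-like cells stood above monocyte-like cells in replicate 1 (0.44) and below them in replicate 3 (-1.99). The pooled -0.92 ± 0.35 passed narrowly (adjusted p = 0.048), and without the tumour block it did not (adjusted p = 0.149).

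**Figure D2:**
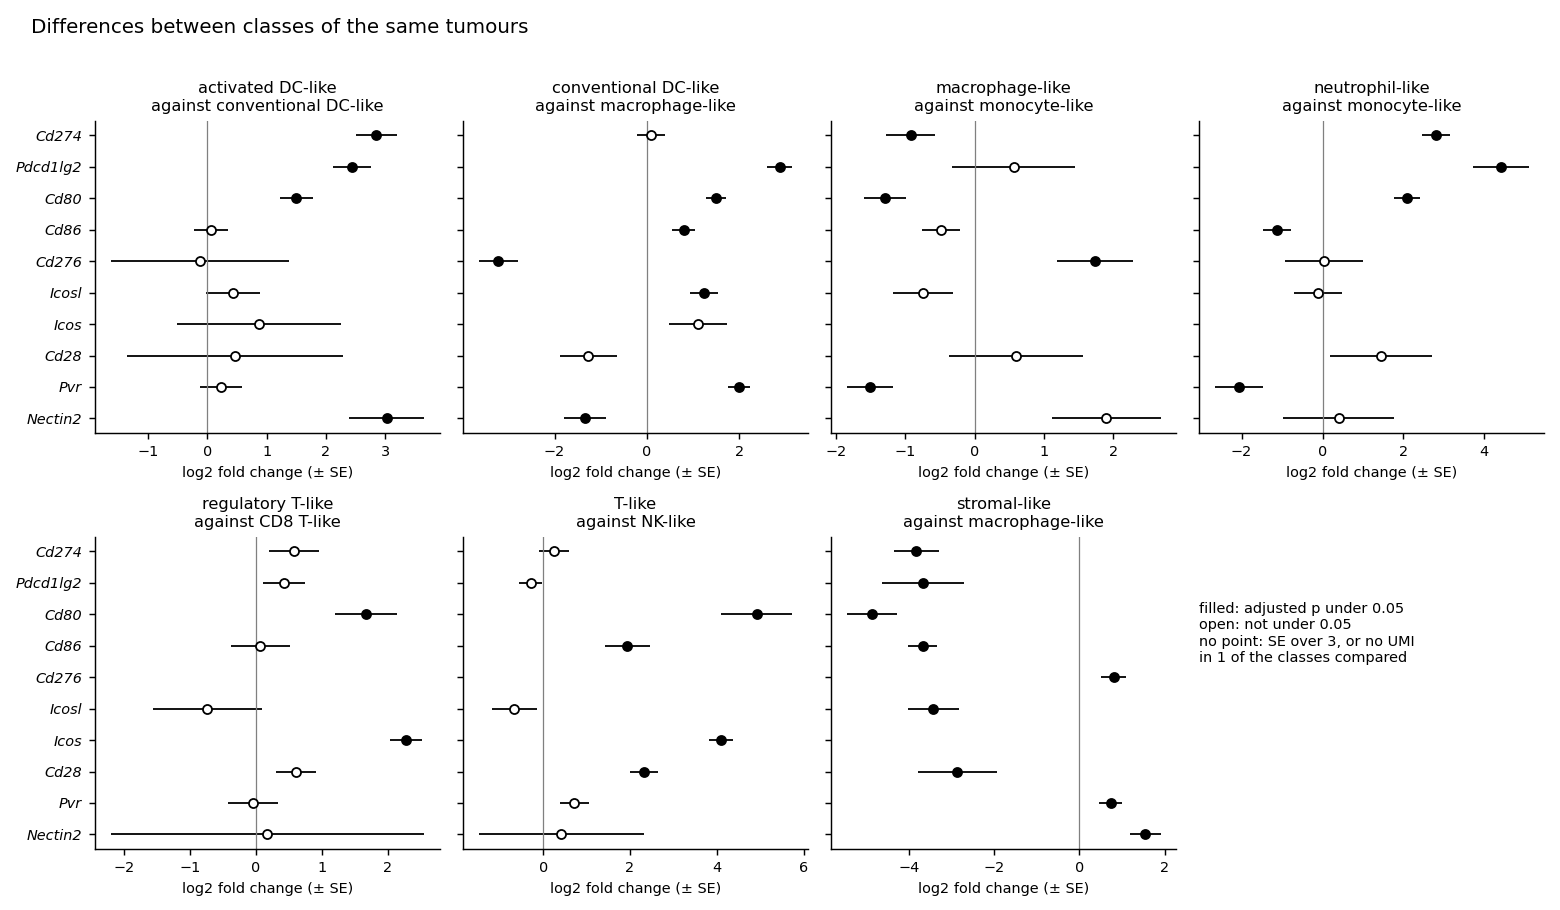
Log2 fold changes of the 10 genes (x axis, ± SE) in 7 comparisons of classes, filled where the adjusted p of edgeR is under 0.05 and left out where the SE is over 3 or a compared class has no UMI. Cd274, Pdcd1lg2, Cd80 and Nectin2 are filled on the right in activated against conventional DC-like cells, and Cd276 lies on opposite sides of 0 for conventional DC-like (-3.22) and stromal-like cells (0.81), each against macrophages.

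The receptors Icos and Cd28 separated T cells from all other classes and ranked the T cell classes differently. Icos was highest in regulatory T-like cells, at 1396 and 805 CPM, a range above that of every other class. Conventional CD4 T-like cells followed at 738 and 424 CPM and CD8 T-like cells at 319 and 119.7 CPM, whose ranges do not overlap, while the other T-like class (666 and 279.8 CPM) overlapped both. NK-like cells had 41.0 and 23.3 CPM, near the free RNA of Icos at 50.4 and 20.7 CPM. Cd28 was highest in conventional CD4 T-like cells, at 725 and 867 CPM, ahead of regulatory T-like cells at 623 and 573 CPM and CD8 T-like cells at 374 and 320.2 CPM, with no overlap between these 3. In the edgeR contrasts given below, however, Cd28 did not pass between regulatory T-like cells and either of the other classes. After thinning to 1000 UMIs, Icos was found in 69.3% of regulatory T-like cells in replicate 1 (149 of 215) and 54.6% in replicate 3 (131 of 240), and in 3 of 2455 and 0 of 3186 macrophage-like cells. The unthinned shares were 94.9% and 92.9% at median totals of 3801 and 5565.5 UMIs, and 0.733% and 1.07% in macrophages at 18170 and 25368.5 UMIs.

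Regulatory T-like cells exceeded CD8 T-like cells in 2 genes, with none lower, against 4.17% of 8241 genes in either direction (1.75% higher and 2.43% lower). Icos was higher by 2.27 ± 0.24 (adjusted p = 6.01e-09 by edgeR), although DESeq2 did not call it (2.20, adjusted p = 0.28). Cd80 was higher by 1.67 ± 0.47 (adjusted p = 0.0291), from 10 and 32 UMIs in regulatory and 1 and 14 in CD8 T-like cells, and this call was lost in 5 of 10 other settings, among them no tumour block (adjusted p = 0.169) and free RNA subtracted (adjusted p = 0.0546). The Cd80 level of regulatory T-like cells, 10.9 and 19.7 CPM, lies below the free RNA of both tumours. Cd28 was at 0.61 ± 0.30 (adjusted p = 0.329). Between regulatory and conventional CD4 T-like cells (added after the data had been seen, 2.26% of genes called) Icos was higher by 0.83 ± 0.23 (adjusted p = 0.0415), a call lost in 7 of 9 other settings, without the tumour block among them (adjusted p = 0.585). Cd80 was at 2.83 ± 0.83 there (adjusted p = 0.0542) and passed with total UMIs (adjusted p = 0.0298). All T cells together exceeded NK-like cells in 4 genes and were lower in none (5.86% of 8231 genes called, 2.41% higher and 3.45% lower). These were Icos by 4.09 ± 0.27, Cd28 by 2.33 ± 0.33, Cd86 by 1.93 ± 0.52 and Cd80, with 14 and 59 UMIs in T-like and 0 and 1 in NK-like cells. DESeq2 called only Cd80 and Cd86 of these. Both lay below their free RNA in T-like cells. Cd86 had 15.2 and 16.3 CPM there against 144 and 133 in free RNA, and Cd80 5.91 and 8.82 against 11.2 and 22.0. With free RNA subtracted, 2 of the 10 genes passed in place of 4.

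PD-L2 transcripts were also found in NK cells. NK-like cells held 55 and 98 UMIs of Pdcd1lg2, a higher CPM than in macrophage-like cells by 3.46 ± 0.27 (adjusted p = 3.88e-15, a contrast added after the data had been seen with 42.3% of genes called), while Cd86 was at 2.69 and 4.58 CPM and Cd274 at 23.5 and 38.4 CPM in the same cells. The free RNA of these tumours had 10.7 and 8.35 CPM of Pdcd1lg2, below the 37.0 and 34.5 CPM of NK-like cells. The 7 activated DC markers summed to 26.2 and 73.0 CPM in NK-like cells, with 4 and 1 of them at 0, and their part in this level was not tested.

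ICOSL transcripts were at low levels, highest on the mean of both tumours in activated DC-like and cDC2-like cells. In replicate 1 alone they were highest in monocyte-like cells. Icosl had 25.3 and 63.4 CPM in activated DC-like cells, 38.6 and 36.3 in cDC2-like, 47.5 and 12.1 in monocyte-like, 26.2 and 14.7 in cDC1-like and 18.3 and 11.5 in macrophage-like cells, with overlapping ranges along that order. Free RNA had 18.0 and 12.2 CPM, so the macrophage level, and the monocyte level of replicate 3 (12 UMIs), do not stand out from it.

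B7-H3 transcripts stood highest in stromal cells and macrophages, and lymphocytes held few or none. Cd276 had 33.3 and 27.5 CPM in stromal-like cells and 17.3 CPM in macrophage-like cells of each tumour, and no range of the other 11 classes reached these, while its free RNA was 9.73 and 15.7 CPM. No UMI was found in NK-like, regulatory T-like or conventional CD4 T-like cells of either tumour. Against the limit of 3 UMIs that a count of 0 allows in each library, macrophage-like cells were at least 8.59-fold and 16.4-fold higher than NK-like cells in replicates 1 and 3, and at least 5.31-fold and 9.36-fold higher than regulatory T-like cells.

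Stromal-like cells differed from macrophage-like cells in 9 of the 10 genes, 3 higher and 6 lower, where 45.4% of 8241 genes were called, 27.3% higher and 18.1% lower. The 3 higher genes were Nectin2 (1.55 ± 0.36, adjusted p = 0.00038), Cd276 (0.81 ± 0.29, adjusted p = 0.0218) and Pvr (0.74 ± 0.28, adjusted p = 0.0254). The last 2 each lost the call in 6 of the 10 other settings tested, and Pvr fitted at -0.19 under the per-cell marker gate. Cd274, Pdcd1lg2, Cd80, Cd86, Icosl and Cd28 were lower, from -2.87 to -4.87 on the log2 scale. Because the class carried YFP and RFP, fibroblast and carcinoma transcripts cannot be told apart in it.

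The 2 nectin-family genes differed in their place among the leukocytes. Pvr was found in each of the 13 classes, with 32.5 and 95.1 CPM in activated DC-like cells, 72.7 and 42.6 in cDC1-like cells (the cross-presenting dendritic cells), 59.3 and 48.3 in cDC2-like, 65.4 and 24.4 in plasmacytoid DC-like, 41.9 and 36.4 in monocyte-like and 17.4 and 11.4 in macrophage-like cells. Neutrophil-like cells had the lowest level, 5.39 and 5.74 CPM. Free RNA held Pvr at 25.5 and 19.3 CPM, above the macrophage-like level in both tumours. Nectin2 was found in fewer classes: stromal-like cells had 24.1 and 41.2 CPM, macrophage-like cells 12.7 and 9.76, and activated DC-like cells 7.23 and 63.4, while the 4 T cell classes and NK-like cells held at most 1 UMI per tumour. The macrophage-like level, from 602 and 890 UMIs, lies near the free RNA of Nectin2, 8.98 and 10.9 CPM. The share of free RNA in it was not measured. Of their receptors, Tigit was at 46.7 and 13.6 CPM in regulatory T-like cells and 6.42 and 3.29 in CD8 T-like cells (2.20 ± 0.63, adjusted p = 0.0317). Cd226 was at 9.78 and 25.3 CPM in regulatory and 92.0 and 187 CPM in CD8 T-like cells (-3.16 ± 0.37, adjusted p = 7.61e-08).

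Mononuclear phagocytes were divided into 11 subsets, 7 within the macrophage-like class and 4 phagocyte clusters named by their leading genes, and each was tested against the mean of the others. In total 53 of 110 gene-by-subset values passed with the tumour block and 26 without it. With the block, 7.67% to 47% of 8830 genes were called per subset. The per-cell marker gate gave 24 calls, but it formed no Vcam1, Fxyd2 or Cyp4f18 subset, so that count covers fewer values. The interferon-gamma-like subset, named from Cxcl9, Gbp2, Gbp2b, Il18bp and Ubd (68 and 178 cells), had the most PD-L1 of the 11 subsets: Cd274 was at 168 and 82.6 CPM, above every other subset in both tumours. Interferons are known inducers of PD-L1. Its rise here, and in the type I interferon cluster below, is therefore not independent of the genes that named these subsets. 5 of the 10 genes were higher there and 0 lower, where 7.67% of 8830 genes were called, 4.86% higher and 2.81% lower. Cd274 rose by 2.15 ± 0.14 (adjusted p = 1.03e-12), Icosl by 1.36 ± 0.25 (adjusted p = 0.000543), Cd86 by 0.94 ± 0.09 (adjusted p = 1.6e-08) and Nectin2 by 0.97 ± 0.21 (adjusted p = 0.00212). Pdcd1lg2 rose by 3.58 ± 0.41 (adjusted p = 3.08e-07), but its 11 UMIs of replicate 1 gave 7.27 CPM, below the free RNA of that tumour, and its 124 UMIs of replicate 3 gave 28.9 CPM, and within 1 tumour the difference was 0.79 and 4.20. Without the tumour block Icosl and Nectin2 were lost (adjusted p = 0.0642 and 0.135), and Cd86 was lost under the marker gate (adjusted p = 0.321).

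The type I interferon cluster, marked by Ifit and Rsad2 genes (78 and 204 cells), also held more PD-1 ligands. Cd274 was at 74.4 and 54.4 CPM (1.17 ± 0.15, adjusted p = 9.65e-07) and Pdcd1lg2 at 19.9 and 6.98 CPM (2.33 ± 0.50, adjusted p = 0.00143), among 6 of 10 genes called higher and 0 lower (10.1% of 8830 genes called, 6.21% higher and 3.93% lower). The 6.98 CPM of replicate 3 lies below that tumour's free RNA, and the PD-L2 call was lost without the block (adjusted p = 0.0761) and under the marker gate (adjusted p = 0.73). Icos (5.28 ± 0.41) and Cd28 (2.61 ± 0.26) were 2 of these 6, at 33.6 and 4.31 CPM and 24.8 and 10.5 CPM. T cell RNA moved with them: the 6 T cell markers, none at 0, summed to 144 and 85.6 CPM in this cluster against 2.86 to 30.1 CPM in the other 10 subsets, and their part in the result was not tested. Under the marker gate the cluster's Icos value was 0.74 (adjusted p = 0.707) and its Cd28 value 0.43 (adjusted p = 0.696).

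PD-L2 was also higher in the Mgl2 cluster (361 and 456 cells), which was left without a class name because cDC2 markers were among its leading genes. Pdcd1lg2 was at 33.7 CPM there in replicate 1 and at 7.27 CPM in replicate 3, below that tumour's free RNA of 8.35 CPM, and 2.98 ± 0.34 above the mean of the other subsets (adjusted p = 1.86e-07), without a change in Cd274 that passed (0.04 ± 0.14). 5 genes were higher and 1 lower in this cluster (17.6% of 8830 genes called, 10.1% higher and 7.5% lower). Cd80 (1.15 ± 0.12), Icosl (1.12 ± 0.19), Cd86 (1.06 ± 0.08) and Pvr (1.04 ± 0.12) rose, and Cd276 was lower (-0.80 ± 0.15). The monocyte-related Cyp4f18 cluster (195 and 745 cells, 29.8% called) had more Cd80 than any other subset in both tumours, at 42.6 and 52.5 CPM (1.79 ± 0.11, adjusted p = 1.91e-12), and less Nectin2, at 7.81 and 3.10 CPM (-1.40 ± 0.22, adjusted p = 1.34e-05). Its Cd274 value, 0.55 ± 0.14 (adjusted p = 0.00305), was negative in 4 other settings, from -0.16 to -0.45, another clustering seed among them. With that seed the cluster was a different set of cells, 114 and 478, and 118 and 408 cells formed a monocyte cluster. The part of this in the change of sign was not tested.

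The osteoclast-like cluster (Atp6v0d2, Mmp9, Ctsk and Acp5 among its markers, 29 and 124 cells) was the opposite pole. 6 genes were lower and 1 higher, where 47% of 8830 genes were called, 28.7% higher and 18.3% lower. Cd86 was at 12.7 and 10.6 CPM (-3.88 ± 0.18, adjusted p = 3.53e-17), Cd274 at 3.47 and 6.71 CPM (-2.34 ± 0.28, adjusted p = 3.74e-08) and Cd80 at 4.63 and 3.45 CPM (-2.30 ± 0.29, adjusted p = 6.98e-08, and 0.152 under the marker gate). Cd276 was at 30.1 and 33.3 CPM, a range that overlaps that of stromal-like cells, and 1.10 ± 0.17 above the other subsets (adjusted p = 2.03e-06). The Fxyd2 subset (32 and 255 cells, 9.23% called) likewise combined higher Cd276 (0.72 ± 0.17) with lower Cd274 (-0.96 ± 0.22), Cd86 (-0.78 ± 0.12) and Cd80 (-0.84 ± 0.21). Of these 4 none kept its call without the tumour block (adjusted p of 0.227, 0.229, 0.181 and 0.28) or with another clustering seed.

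Cd274 also marked differences among the other macrophages. Vcam1 macrophages (1306 and 710 cells, 29.6% called) had 49.4 and 35.6 CPM (0.47 ± 0.12, adjusted p = 0.00365, and 0.315 without the block), and dividing macrophages (187 and 769 cells, 45.7% called) 20.3 and 13.9 CPM (-1.05 ± 0.15, adjusted p = 9.26e-07). The stress subset, with 536 cells in replicate 1 and 12 in replicate 3 (24.9% called), had 78.4 and 37.9 CPM (1.19 ± 0.16, adjusted p = 3.46e-06). Resident-like macrophages (24.7% called) had 30.1 and 16.7 CPM and the remaining macrophages (7.87% called) 20.9 and 18.8 CPM, at -0.62 ± 0.16 and -0.61 ± 0.15, and both calls were lost without the block (adjusted p = 0.336 and 0.511). Free RNA held Cd274 at 45.9 and 36.6 CPM, so the Vcam1 levels and the stress level of replicate 3 do not stand out from it. The levels of dividing, resident-like and remaining macrophages lay below it in both tumours. Dividing macrophages were the other subset with an Icos call (2.82 ± 0.41, 6.22 and 1.46 CPM), and the T cell markers summed to 27.2 and 17.8 CPM in them. Under the marker gate that Icos value was -0.71, and the part of T cell RNA in it was not tested.

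**Figure D3:**
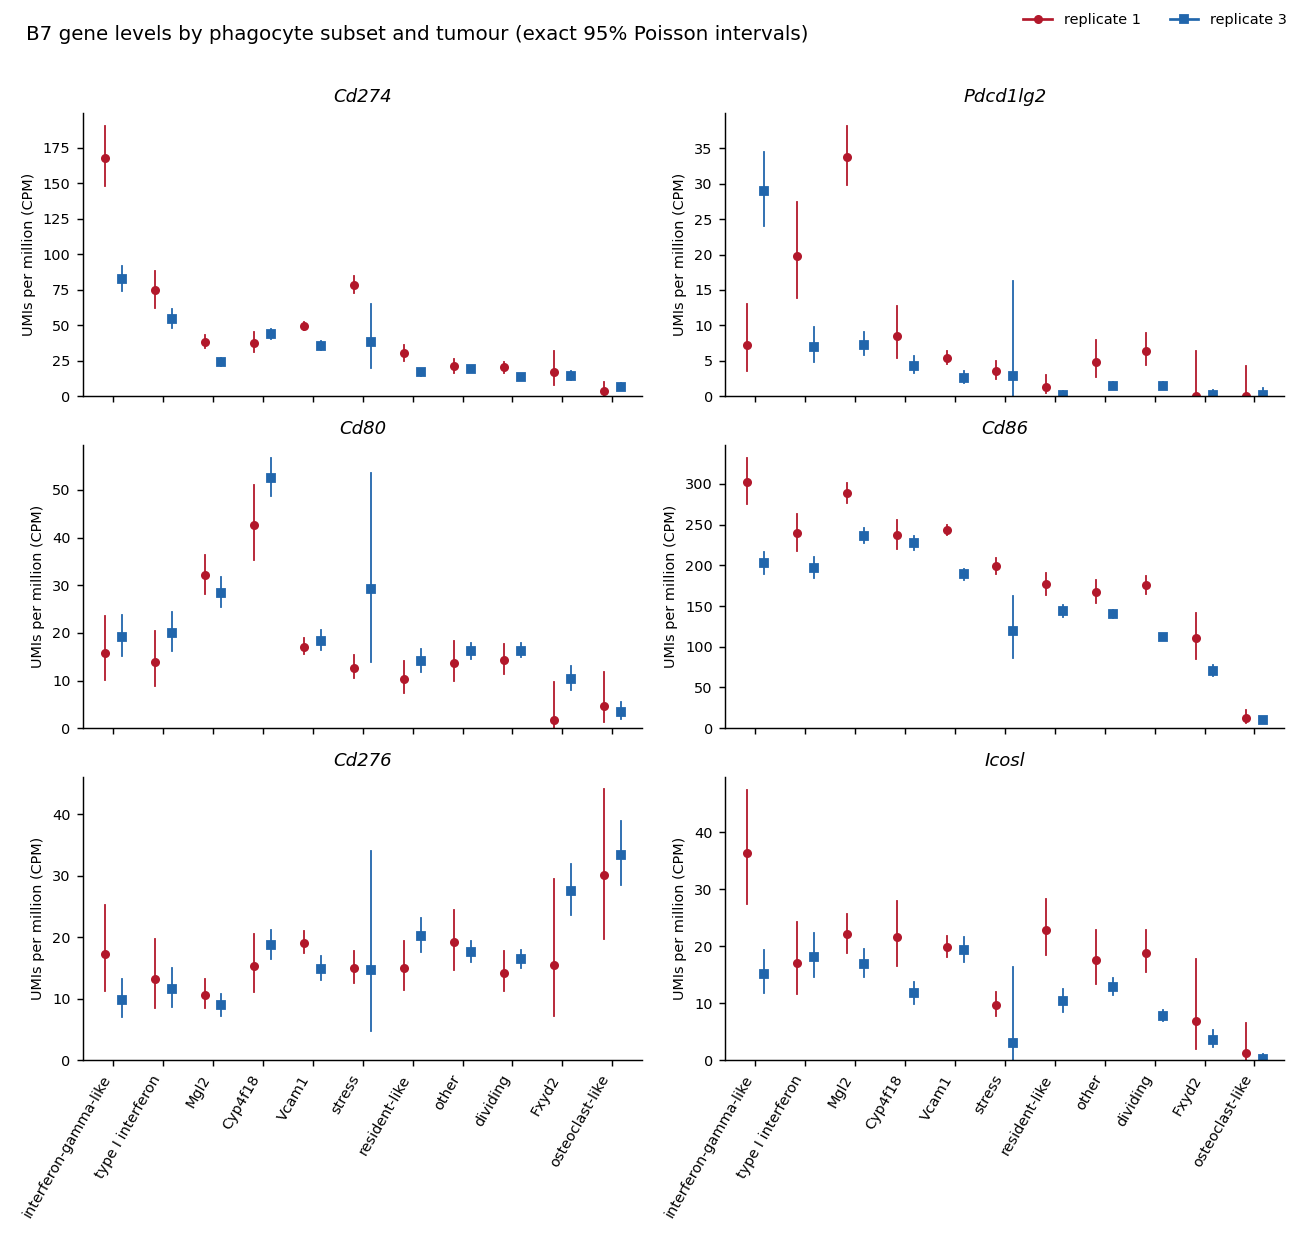
Level of 6 B7 genes in CPM (UMIs scaled by the total of the subset, linear axes from 0, scaled per gene) in 11 phagocyte subsets, 1 point per tumour with exact 95% Poisson intervals. The interferon-gamma-like subset is highest for Cd274 in both tumours (168 and 82.6 CPM), and the osteoclast-like subset is lowest for Cd86 (12.7 and 10.6 CPM) and highest for Cd276.

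The partner receptors and known regulators of these genes were followed as lists chosen with earlier results of these data known. Of 20 regulators, 11 were higher and 1 lower in the interferon-gamma-like subset, where 4.86% of 8830 genes were higher and 2.81% lower. The median log2 fold change of the regulators was 0.45 against -0.05 over all genes. Irf1 (2.05 ± 0.13), Ciita (1.99 ± 0.16) and Socs1 (1.80 ± 0.20), all of the interferon-gamma response, were among the higher. The subset was named from genes of that same response, so these rises are not independent of its name. In the osteoclast-like cluster 0 regulators were higher and 15 lower (median -1.19 against 0.08), where 28.7% of all genes were higher and 18.3% lower. In activated against conventional dendritic cells 9 regulators were higher and 3 lower (median 0.42 against -0.25), where 5.34% of 8281 genes were higher and 10.2% lower. The higher ones were led by Relb (3.01 ± 0.21), a subunit of non-canonical NF-kappaB, and Stat3 (1.83 ± 0.26). Ciita, the activator of MHC class II genes, was lower (-1.92 ± 0.40). Of the 22 other pathway genes, 20 could be tested there: Cd200 (5.08 ± 0.39), Pdcd1 (4.97 ± 0.82) and Cd40 (2.76 ± 0.27) were higher and 4 were lower. In regulatory against CD8 T-like cells 2 of 20 pathway genes were higher, Tigit and Ctla4, and 1, Cd226, was lower. Over all 8241 genes 1.75% were higher and 2.43% lower. The CD80 and CD86 receptor Ctla4 stood at 1109 and 1108 CPM against 205 and 150.4 CPM (2.50 ± 0.25, adjusted p = 7.81e-10).

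Over the means of the 13 classes, the genes most like Icos were Tox, Ctla4 and Trac (Pearson r of log2(CPM + 10) 0.989, 0.987 and 0.986). Those most like Pdcd1lg2 were Traf1, Stat4 and Relb (0.902, 0.902 and 0.880), those most like Cd274 Fbrs, Stat6 and Fam32a (0.908, 0.904 and 0.880), and those most like Cd276 Pdgfc, Plau and Ahnak2 (0.981, 0.976 and 0.963). These are the highest of 8063 genes, the classes share libraries, and the values are a description.

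The spatial codes were compared in macrophage-like cells by the ratio of codes ZC1 and ZC5, whose regions are not named in the sources used here. Cells in the upper tercile of the ratio (819 and 1062 cells) and the lower tercile (818 and 1062 cells) had 49.6 and 25.4 against 52.4 and 20.3 CPM of Cd274, and 202 and 141 against 227 and 135 CPM of Cd86. With edgeR 0 of the 10 genes passed and 0% of 9341 genes were called, of which 143 had an unadjusted p under 0.05, and DESeq2 called 0 of the 10 as well. Icos (38 and 17 UMIs against 3 and 12) and Pdcd1lg2 (6.97 and 2.87 against 3.17 and 2.73 CPM) were the 2 members with an unadjusted p under 0.05, at adjusted p of 0.12 and 0.999.

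The 2 tumours shared the leading class of Pdcd1lg2, Cd80, Cd276, Icos and Cd28 among the 13, and differed in that of Cd274, Cd86, Icosl, Pvr and Nectin2. Cd274 was highest in neutrophil-like cells in replicate 1 and in activated DC-like cells in replicate 3, and Cd86 in cDC2-like cells in replicate 1 and in activated DC-like cells in replicate 3. Icos was lower in replicate 3 than in replicate 1 in regulatory, conventional CD4, CD8 and other T-like cells and NK-like cells, with Poisson intervals apart in each. Cd274 was lower in replicate 3 in macrophage-like cells (51.1 against 22.7 CPM) but higher in activated DC-like, cDC2-like, monocyte-like and regulatory T-like cells, again with intervals apart. Pdcd1lg2 was lower in replicate 3 in CD8 T-like, cDC2-like, macrophage-like and regulatory T-like cells. For Cd276 no class had intervals apart. With 1 tumour on each side these differences have no replicate test.

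**Figure D4:**
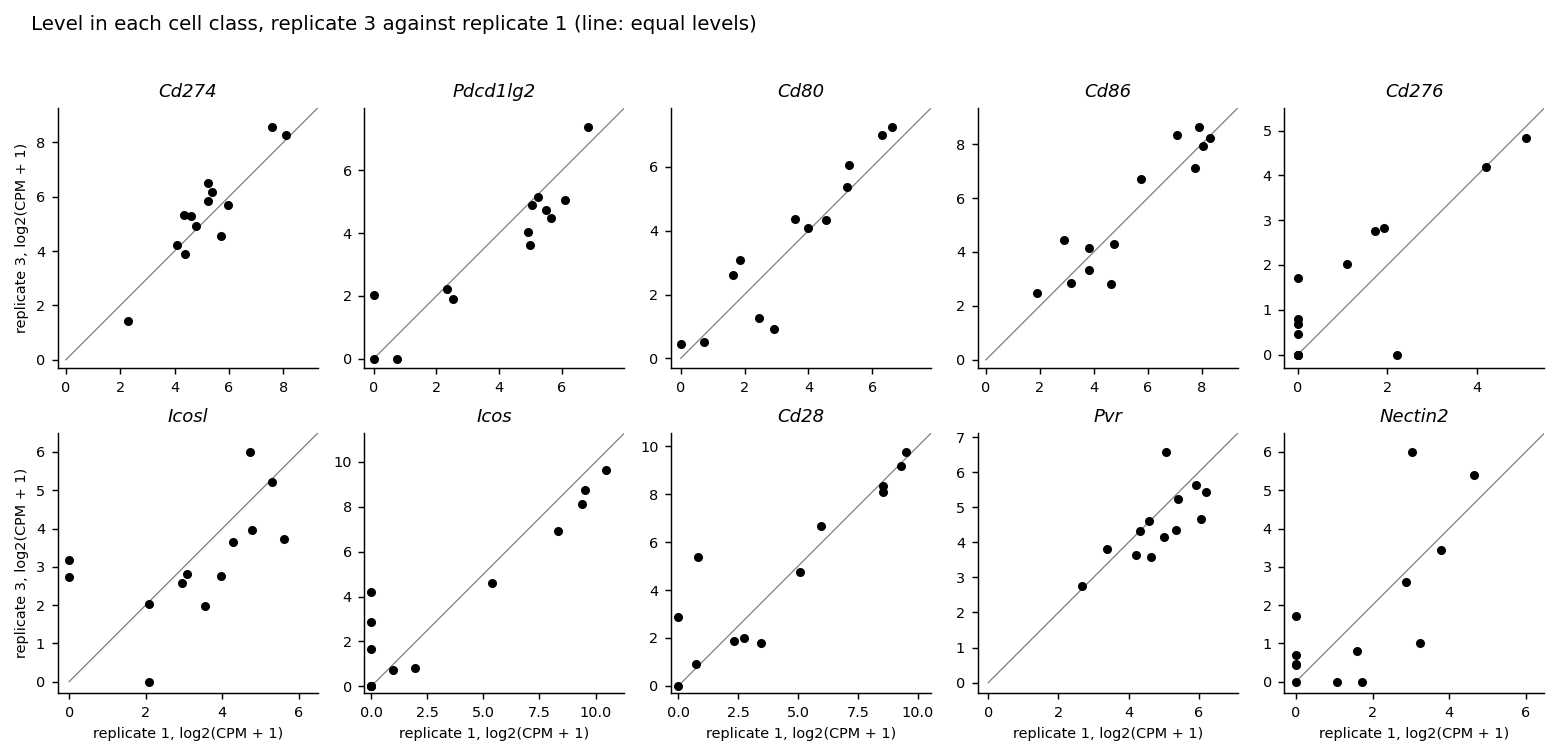
Level of each gene in 13 cell classes (1 point per class) as log2(CPM + 1), replicate 1 on the x axis and replicate 3 on the y axis, with the line of equal levels. Icos lies below the line in regulatory T-like cells (1396 and 805 CPM) and the other T cell classes, and Cd276 lies close to it in its 2 highest classes, stromal-like and macrophage-like.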

How the data were processed

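Gene and spatial-code UMI counts of 2 tumour libraries were deposited by the authors as unfiltered matrices, made with Cell Ranger 4.0 on mm10 per the submitters' processing notes. The members and the pathway and regulator lists were chosen with earlier results of these data known. The named genes were the 10 members, plus genes of those lists that passed or are receptors of a member. Cells needed 1000 UMIs, 500 genes and at most 10% mitochondrial UMIs. Scrublet's own threshold marked 1 and 0 cells, so the 186 and 363 highest doublet scores were removed (0.8% per 1000 cells). Cells were clustered with scanpy 1.11.5 and leidenalg 0.10.2 (2000 variable genes, 30 components, resolution 1, exact neighbours), with the members and both lists set aside. The rule that scored the marker lists, and the entry of 4 phagocyte clusters outside the macrophage-like class into the subset fit, were set after the data had been seen, as were 5 comparisons named as added and another clustering seed, tried because cluster borders moved with the precision of the arithmetic. UMI counts were summed per tumour and class and tested with edgeR 4.0.16 (TMM, filterByExpr, tumour as a block, adjusted p under 0.05), a procedure tested on simulated data, in R 4.3.3, with DESeq2 1.42.0 as an alternative. Genes used for clustering were not tested. The block rests on both classes coming from the same tumour. As a check, deviations of the same tumour correlated at 0.0137 to 0.337 over 78 pairs of classes, above 0.1 in 46. Poisson intervals are exact at 95% and cover counting error only, and a count of 0 allows up to 3 UMIs. Single-tumour values have no test.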

Additional observations from a re-analysis of the deposited data

Results flagged for a closer look

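A mast cell or basophil class of 24 cells was found in replicate 1 alone and entered no comparison. Cd274 stood there at 114 CPM, from 9 UMIs, above the 38.0 CPM that a count of 0 allows at its depth.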

How the results depend on the processing

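Of 107 member differences that passed, 50 kept their call in every alternative run that could test them. Over 1018 refits 855 kept the call, 155 lost it and 8 reversed. Analysed without the replicate block, which ignores the pairing of classes by tumour, 41 of the 107 lost their call. DESeq2 lost 22, the per-cell marker gate 18 of the 89 it could test and another clustering seed, added after the data had been seen, 15 of 104. In 1 tumour alone, where no test is possible, 3 of the 107 changed sign: Cd274 in macrophage-like against monocyte-like cells (-1.99 and 0.44), Cd276 in Fxyd2 macrophages (0.81 without replicate 1 and -0.0033 without replicate 3) and Cd86 in stress macrophages (-0.0031 without replicate 1 and 0.34 without replicate 3).

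The number of the 10 genes called in conventional DC-like against macrophage-like cells fell from 7 to 4 without the replicate block and to 4 with DESeq2, and in macrophage-like against monocyte-like cells from 4 to 2 without the replicate block. Regulatory against CD8 T-like cells fell from 2 to 1 at the higher UMI minimum, the mitochondrial limit of 5%, the gate, free RNA subtracted, no replicate block (pairing ignored) and DESeq2. T-like against NK-like cells fell from 4 to 2 with free RNA subtracted and with DESeq2. The 53 subset calls fell to 26 without the replicate block. Under the gate 24 passed, but no Vcam1, Fxyd2 or Cyp4f18 subset was formed there, so that count covers fewer values. The causes were not tested.

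Log2 fold changes that turned sign at the higher UMI minimum were Cd28 in conventional DC-like against macrophage-like cells (1.01) and Pdcd1lg2 in macrophage-like against monocyte-like cells (-1.27). Neither had passed in the main run, so this list is wider than the reversals counted above. Cd274 in the Cyp4f18 cluster (-0.28) and the remaining macrophages (0.22) turned there as well. At the 5% limit Cd274 (-0.28) and Pdcd1lg2 (-0.14) in the Cyp4f18 cluster, Cd80 in Vcam1 (-0.44) and Cd86 in the remaining macrophages (-0.44) turned. Cd274 in the Cyp4f18 cluster also became -0.45 at resolution 2 and -0.16 with another clustering seed. Under the gate Pvr in stromal-like against macrophage-like cells became -0.19, and Pdcd1lg2 and Icos in dividing macrophages -1.87 and -0.71. With free RNA subtracted Cd86 in dividing macrophages became 0.79. The causes were not tested.

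Over all genes, calls without the replicate block fell from 1290 to 722 in activated against conventional DC-like cells, from 1490 to 591 in conventional DC-like against macrophage-like cells, from 1904 to 946 in macrophage-like against monocyte-like cells, from 344 to 84 in regulatory against CD8 T-like cells and from 482 to 182 in T-like against NK-like cells. The interferon-gamma-like subset went from 677 to 126, and the Fxyd2 subset from 815 to 23. With total UMIs in place of TMM factors the share of higher calls moved from 52.6% to 10.3% in neutrophil-like against monocyte-like cells, whose calls rose from 1841 to 3166, and from 41.9% to 72.9% in regulatory against CD8 T-like cells. At the higher UMI minimum no neutrophil-like and no conventional CD4 T-like class remained, so their comparisons were not run there. The highest class became activated DC-like for Cd274 and regulatory T-like for Cd28. Activated DC-like cells numbered 16 and 17, which limits the precision of their levels.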
